A study of Mus musculus with 6 samples.

Results

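The semaphorin guidance family was measured in mouse bone marrow-derived macrophages exposed to vesicles from a bone tumour line. Its members were every row of the deposited tables whose gene symbol begins with Sema3 to Sema7 or with Plxna to Plxnd, or is Nrp1 or Nrp2. These were 31 of 26835 genes: 19 semaphorin ligands, 9 plexin receptors, 2 neuropilin receptors and Plxna4os1, a non-coding RNA annotated on the strand opposite to Plxna4. The macrophages were wild-type (genotype WT) primary cells from the femurs and tibias of BALB/C mice aged 5 to 8 weeks. Marrow cells of both groups had been kept for 6 days in RPMI medium containing M-CSF, the growth factor that drives them to macrophages, at 25 ng/ml, and 10% heat-inactivated serum. One group of 3 libraries then received 10 µg of K7M2-EVs, extracellular vesicles of the mouse osteosarcoma line K7M2, for 24 h, and the other group of 3 received PBS. The labels call the libraries biological replicates of independent experiments, and do not say whether animals were pooled.

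Semaphorins are secreted or membrane-bound signals that steer migrating cells and growing axons. They bind plexins, large transmembrane receptors whose cytoplasmic part acts on small GTPases of the Ras and Rap families and so loosens adhesion and the actin cytoskeleton. Class 3 semaphorins are secreted and mostly need a neuropilin as the binding partner of a plexin, whereas classes 4 to 6 are transmembrane and class 7 is held by a lipid anchor. In the immune system Sema4A, Sema4D and Sema7A are known from contacts of myeloid cells with lymphocytes, and plexin-A1 works with the receptor TREM2 and its adaptor TYROBP in dendritic cells and osteoclasts.

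The family went in different directions after vesicles. The class 4 ligand genes Sema4a and Sema4c and the receptor gene Nrp2 rose. Sema4d, Sema6b and Sema7a fell, as did Nrp1 and the plexin genes Plxna1, Plxna2, Plxnc1 and Plxnd1. A filter of at least 1 FPKM (fragments per kilobase of transcript, scaled to the size of the library) in at least 3 libraries kept 14 members, and these were tested on log2(FPKM + 1) with limma across 13009 genes. A gene was called where its p, adjusted by Benjamini-Hochberg over these genes, was under 0.05. Of the 6 ligands kept, 2 were higher, 3 lower and 1 not called, and of the 7 receptors kept, 1 was higher, 5 lower and 1 not called. Over all genes tested, 18.4% were called higher and 35.6% lower, 54.0% in either direction. In 11 of the 14 members kept, every library of one group lay above every library of the other, against 63.8% of all genes tested. With the replicate number as a block the counts of members were the same, where 56.0% of all genes were called, 19.2% higher and 36.8% lower. Calls were thus common among all genes, and the members are described by the size and direction of their changes. With the values read as FPKM, the libraries held an implied 21439075 to 25608932 reads each. In bulk RNA, fewer cells of a type and less RNA per cell cannot be told apart.

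The 4 sequences below are the stretches of 150 bases before an annotated RefSeq start (GRCm38.p6) of the strongest risers and of a neuropilin and a plexin that fell, shown because each holds letters of a factor type known in macrophages. Capitals mark the match. For Sema4a (chr3:88459102-88459251, minus strand) and Nrp1 (chr8:128358923-128359072, plus strand) they mark GAGGAA, the core bound by PU.1-type factors. For Sema4c (chr1:36558382-36558531, minus strand) they mark TGANTCA, the AP-1-type letters, and for Plxnc1 (chr10:94944846-94944995, minus strand) the interferon-type letters, 2 copies of GAAA set 2 bases apart.
Sema4a: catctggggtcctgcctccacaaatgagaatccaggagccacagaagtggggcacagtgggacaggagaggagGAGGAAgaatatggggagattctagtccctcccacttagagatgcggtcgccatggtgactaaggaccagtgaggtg
Sema4c: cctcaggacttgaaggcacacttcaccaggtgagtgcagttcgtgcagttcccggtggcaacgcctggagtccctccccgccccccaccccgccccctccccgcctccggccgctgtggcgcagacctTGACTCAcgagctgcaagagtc
Nrp1: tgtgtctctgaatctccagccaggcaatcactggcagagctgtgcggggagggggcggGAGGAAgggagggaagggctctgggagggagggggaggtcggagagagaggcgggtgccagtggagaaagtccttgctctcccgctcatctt
Plxnc1: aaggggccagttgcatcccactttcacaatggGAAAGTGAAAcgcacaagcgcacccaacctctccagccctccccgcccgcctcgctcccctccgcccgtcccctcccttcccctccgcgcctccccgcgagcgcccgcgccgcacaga
The Sema4a and Nrp1 stretches lie inside the span of their GENCODE gene models but in none of their exons. Sema4a has 4 annotated starts and Sema4c 2, and gene-level FPKM values do not tell which start was used.

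Each motif was searched on both strands in the same stretch of 32851 RefSeq starts, 36 of them from 25 of the 31 members. GAGGAA was found at 14.5% of all starts and at 8 of the 36 member starts (22.2%). These lay in 8 member genes, among them Sema4b, which was not called, and Sema6b, which fell. TGANTCA was found at 4.24% of all starts and at 2 member starts (5.56%), in Sema4c and Sema6b. The interferon-type letters were found at 1.59% of all starts and at 2 member starts (5.56%), in Plxnc1 and Sema6b, which both fell. The NF-kB-type letters, GGG and then TTTCC after 2 bases of any kind, were found at 0.925% of all starts and in 0 members. The GC box GGGCGG stood in 27 of the 36 member stretches against 28.6% of all starts. None of the printed matches overlapped a match of another motif. Such matches are letters in a window, not binding sites.

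Among the ligands, Sema4a (chr3:88435959-88461182, minus strand), whose product binds plexin-D1 and B-type plexins and acts on T cells, had the largest log2(FPKM + 1) difference of those kept by the filter. It was at 1.14, 0.979 and 1.11 FPKM after PBS and at 11.2, 8.29 and 11.1 FPKM after vesicles. The vesicle libraries all stood far above the PBS libraries. PBS replicate 2 was under 1 FPKM, so Sema4a passed the filter only with the help of its vesicle libraries. The means were 1.08 ± 0.0845 and 10.2 ± 1.66 FPKM (SD, n = 3 each), a 9.48-fold rise. On the log2(FPKM + 1) scale, which understates changes of low genes, the difference was 2.42 (SE 0.116, limma adjusted p = 1.6e-05), larger in size than that of 98.3% of genes tested.

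Sema4c (chr1:36548639-36558349, minus strand) encodes a ligand of plexin-B2. Its values were 3.11, 2.53 and 3.09 FPKM after PBS and 8.81, 7.22 and 11.7 FPKM after vesicles. Every vesicle library was above every PBS library, and the vesicle libraries differed among themselves by more than the PBS ones. The means were 2.91 ± 0.33 and 9.23 ± 2.25 FPKM, a 3.17-fold rise (log2 difference 1.37, SE 0.16, limma adjusted p = 0.00061). An exon of the non-coding gene D430040D24Rik on the opposite strand covers 7.27% of the Sema4c exons, and the sources used here do not give the strand setting of the counting.

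Sema4d (chr13:51685529-51793747, minus strand), the gene of CD100, whose product binds plexin-B1, plexin-B2 and CD72, was the most abundant ligand with either treatment. Its values were 42.6, 34.4 and 40.2 FPKM after PBS, against 20.97, 17.3 and 21.2 FPKM after vesicles. All vesicle values were below all PBS values. The mean went from 39.1 ± 4.19 to 19.8 ± 2.19 FPKM, 1.97-fold lower (log2 difference -0.94, SE 0.109, limma adjusted p = 0.00058).

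Sema7a (chr9:57940112-57962865, plus strand), the lipid-anchored ligand of plexin-C1 and of integrin β1, was at 5.08, 11.6 and 5.04 FPKM after PBS and at 2.34, 2.62 and 2.04 FPKM after vesicles. The groups did not overlap, and PBS replicate 2 stood apart from the other PBS libraries. The mean fell from 7.25 ± 3.79 to 2.34 ± 0.289 FPKM (log2 difference -1.22, SE 0.289, limma adjusted p = 0.0122). Without PBS replicate 2 the difference was -0.86 with an SE of 0.0898 (limma adjusted p = 0.00103). With both libraries of replicate 1 left out it was -1.40 (limma adjusted p = 0.0500469) and with those of replicate 3 left out -1.33 (limma adjusted p = 0.0582), so the call was lost in both cases.

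Sema6b (chr17:56123085-56140343, minus strand), a class 6 ligand of A-type plexins, was at 4.46, 5.30 and 5.57 FPKM after PBS and 2.68, 2.89 and 3.18 FPKM after vesicles. These values did not overlap (log2 difference -0.64, SE 0.0895, limma adjusted p = 0.00132). Sema4b, another class 4 ligand, was at 2.06, 1.92 and 1.76 FPKM after PBS and 1.58, 1.98 and 1.69 FPKM after vesicles. Its groups overlapped, and the difference of -0.08 (95% interval -0.28 to 0.115) was not called (limma adjusted p = 0.43). The sign of the Sema4b difference changed with scaling.

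**Figure D1:**
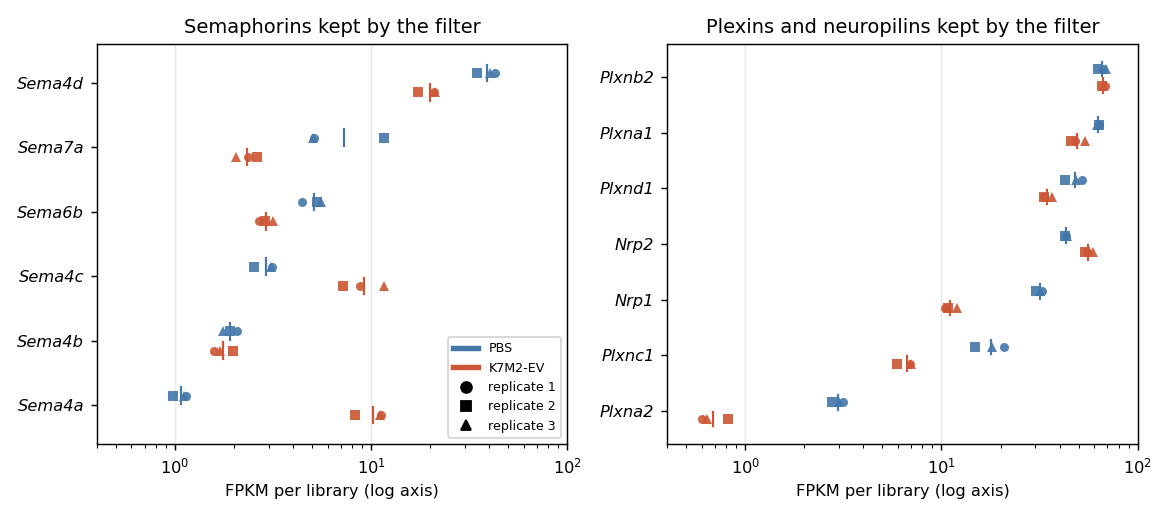
FPKM in each library on a log axis for the 6 semaphorins and the 7 plexin and neuropilin receptors kept by the filter. Symbols stand for replicates, colours for treatments and vertical bars for group means. Sema4a lies between 0.979 and 1.14 FPKM after PBS and between 8.29 and 11.2 FPKM after vesicles, while Plxnb2 lies between 62.7 and 68.8 FPKM in all libraries.

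The neuropilins diverged. Nrp1 (chr8:128358604-128503363, plus strand), the classical co-receptor of Sema3A and of VEGF-A, was at 32.5, 30.4 and 31.9 FPKM after PBS and 10.4, 10.8 and 11.9 FPKM after vesicles. All 3 vesicle libraries were far below all PBS libraries. The mean fell from 31.6 ± 1.07 to 11.0 ± 0.81 FPKM, 2.86-fold (log2 difference -1.44, SE 0.064, limma adjusted p = 1.18e-05).

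Nrp2 (chr1:62703285-62818695, plus strand), the co-receptor of Sema3F and of VEGF-C, was at 43.1, 42.7 and 43.5 FPKM after PBS and 55.0, 53.6 and 59.1 FPKM after vesicles. The vesicle libraries were all higher, by a mean of 1.297-fold (log2 difference 0.37, SE 0.0557, limma adjusted p = 0.00187). The ratio of Nrp1 to Nrp2 FPKM within a library was 0.753, 0.712 and 0.734 after PBS and 0.189, 0.201 and 0.202 after vesicles. Ratios within a library do not depend on how libraries are scaled against each other. The groups of ratios did not overlap (exact two-sided permutation p = 0.1, the smallest that 3 against 3 allows, and 0.14 after Benjamini-Hochberg adjustment over 7 ratios). Since both genes separated the groups, in opposite directions, their ratio had to separate them too. The test of the ratio thus adds nothing to the single-gene results.

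Among the plexins, the abundant genes were Plxnb2, Plxna1 and Plxnd1. Plxnb2 (chr15:89155549-89180788, minus strand), a receptor of Sema4C and Sema4D, was at 66.3, 62.7 and 68.8 FPKM after PBS and at 68.2, 65.8 and 66.5 FPKM after vesicles. The groups overlapped. The difference was 0.02 with a 95% interval of -0.115 to 0.15 (limma adjusted p = 0.79), and its sign changed with scaling, from 0.16 with median-of-ratios scaling to -0.03 with quantile normalization.

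Plxna1 (chr6:89316314-89362620, minus strand), a receptor of class 3 and class 6 semaphorins, was at 63.1, 63.4 and 62.1 FPKM after PBS and 47.9, 45.7 and 53.7 FPKM after vesicles. All vesicle values were lower (log2 difference -0.35, SE 0.0702, limma adjusted p = 0.00585). The call was lost with median-of-ratios scaling (-0.21, limma adjusted p = 0.0563) and when replicate 1 was left out of both groups (-0.33, limma adjusted p = 0.06). The antisense gene Gm26811 overlaps 10.7% of the Plxna1 exons. Plxnd1 (chr6:115954811-115995005, minus strand), a receptor of Sema3E and Sema4A, was at 51.8, 42.5 and 48.7 FPKM after PBS and 33.3, 33.4 and 36.6 FPKM after vesicles (log2 difference -0.45, SE 0.0859, limma adjusted p = 0.00477). Its groups did not overlap.

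Larger falls were seen in less abundant plexin genes. Plxnc1 (chr10:94790866-94944835, minus strand), the receptor of Sema7A, was at 20.9, 14.8 and 18.0 FPKM after PBS and 6.95, 5.97 and 7.02 FPKM after vesicles. It was 2.69-fold lower, without overlap (log2 difference -1.29, SE 0.127, limma adjusted p = 0.00029). Plxna2 (chr1:194618218-194816869, plus strand), an A-type plexin, was at 3.16, 2.77 and 3.00 FPKM after PBS and 0.599, 0.818 and 0.642 FPKM after vesicles, a 4.34-fold fall (log2 difference -1.24, SE 0.0786, limma adjusted p = 4.57e-05). It passed the filter only through its PBS libraries. The antisense Plxna4os1 had overlapping values, at 2.07, 1.26 and 1.61 FPKM after PBS and 1.302, 1.25 and 0.651 FPKM after vesicles, and was not called (limma adjusted p = 0.117).

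**Figure D2:**
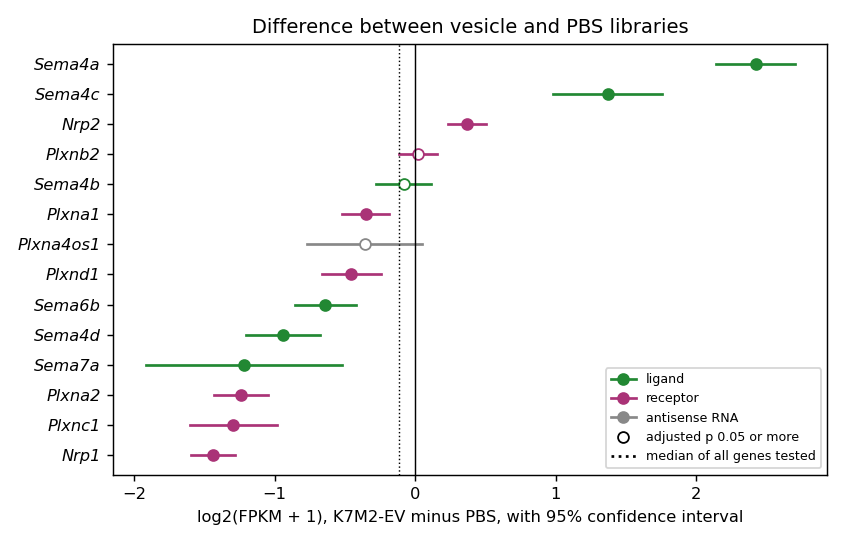
Difference in log2(FPKM + 1), K7M2-EV minus PBS, with its 95% confidence interval from limma for the 14 members kept by the filter, coloured by role. Open symbols were not called, and the dotted line is the median of all genes tested, -0.12. Sema4a at 2.42 and Nrp1 at -1.44 mark the ends of the range.

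The median gene tested was itself lower after vesicles, with a log2 difference of -0.12. Relative to that median the differences were 0.48 for Nrp2, -0.24 for Plxna1, -0.34 for Plxnd1 and 0.13 for Plxnb2. Quantile normalization, which also brought the median near 0, moved these genes the other way, to 0.30 for Nrp2, -0.41 for Plxna1, -0.51 for Plxnd1 and -0.03 for Plxnb2. The median log2 difference was -0.36 for the 6 ligands kept and -0.45 for the 7 receptors kept. Ligands spanned -1.22 to 2.42 and receptors -1.44 to 0.37.

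In summed FPKM, which is per length, receptors outweighed ligands in every library. The 19 ligands summed to 59.2, 58.5 and 57.7 FPKM after PBS and 48.1, 41.4 and 51.5 FPKM after vesicles. The 11 receptors summed to 282, 261 and 277 FPKM after PBS and to 223, 217 and 236 FPKM after vesicles. Both sums were lower in every vesicle library. The make-up of the ligand pool shifted within class 4, since Sema4a stood at 0.0267 to 0.0285 of Sema4d after PBS and at 0.479 to 0.534 of it after vesicles. Sema4c stood at 0.073 to 0.0769 of Sema4d after PBS and at 0.417 to 0.549 after vesicles. Neither of these ratios overlapped between groups (exact two-sided permutation p = 0.1 for each, 0.14 adjusted over the 7 ratios). That was fixed by the single-gene values, since Sema4a and Sema4c rose and Sema4d fell, each without overlap.

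Ligand and receptor genes of known pairs did not all move alike. Sema7a and its receptor gene Plxnc1 were both lower, and their ratio ran from 0.244 to 0.788 after PBS and from 0.291 to 0.439 after vesicles, so that it overlapped (exact two-sided permutation p = 1). Sema4c rose while Plxnb2 was not called. Sema4a rose while Plxnd1 fell. For Plxna2 against Plxna1, the ratio was 0.0436 to 0.05 after PBS and 0.012 to 0.0179 after vesicles, without overlap (exact two-sided permutation p = 0.1, 0.14 adjusted over the 7 ratios).

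**Figure D3:**
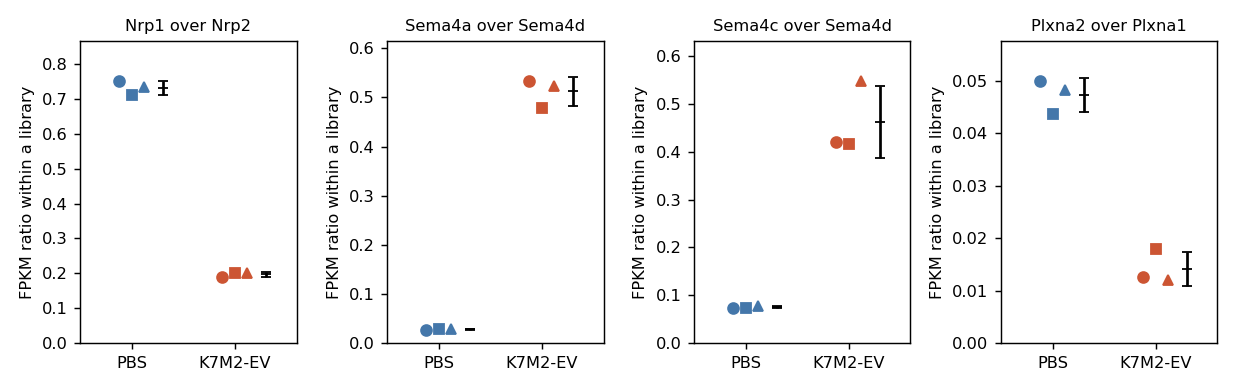
Ratio of FPKM values of 2 members within each library, with the mean and SD of 3 libraries per group beside the points. The Nrp1 to Nrp2 ratio lies between 0.712 and 0.753 after PBS and between 0.189 and 0.202 after vesicles.

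The other 17 members, 13 ligands and 4 plexins, were below the filter, at no more than 0.623 FPKM in any library. Of these ligands 8 were under 0.1 FPKM throughout, and Sema3d, Sema3g and Sema4f were listed at 0 in at least 1 library. With the filter removed, limma called 1 of the 17, Plxna4, which fell, where 10.4% of all genes below the filter were called lower and 2.79% higher, 13.2% in all. Over all 26835 genes this model called 30.1%, 9.31% higher and 20.8% lower. Plxna4, the receptor of Sema6A and Sema6B, was at 0.623, 0.514 and 0.58 FPKM after PBS and 0.142, 0.287 and 0.2 FPKM after vesicles (log2 difference -0.38, limma adjusted p = 0.00744). Its values did not overlap.

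The log2(FPKM + 1) scale compresses such low values, so the reads behind them were also tested. Multiplying FPKM by exon length gave approximate reads, and limma's voom on these, chosen after seeing the data, tested 10 of the 17. It called 6 lower and 0 higher, against 33.5% lower and 7.51% higher among all genes below the FPKM filter that it tested, 41.0% in all. Over all 16034 genes that voom tested, 52.0% were called, 16.1% higher and 35.8% lower. Sema3a, the secreted ligand of Nrp1 with A-type plexins, was at 0.114, 0.322 and 0.151 FPKM after PBS and at 0.0095, 0.0309 and 0.0166 FPKM after vesicles. These are means of 61.5 and 6.07 approximate reads per library, a log2 difference of -3.28 (SE 0.662, limma voom adjusted p = 0.00525). Sema5a was at 0.0583, 0.142 and 0.0789 FPKM after PBS and 0.00688, 0.0354 and 0.00688 FPKM after vesicles (limma voom log2 difference -2.76, adjusted p = 0.0108). Sema4g, Sema6d, Plxna3 and Plxna4 had voom log2 differences of -1.196, -0.72, -0.59 and -1.51. Sema3a and Sema4g passed voom's filter, at least 10 approximate reads in at least 3 libraries, only through their PBS libraries. Among the vesicle libraries, Sema5a reached 10 approximate reads only in replicate 2. With the replicate number as a block, voom also called Plxnb1, the high-affinity receptor of Sema4D (limma adjusted p = 0.0237, against 0.133 without the block). That model called 39.5% of all its genes lower, and 40.2% of those below the FPKM filter.

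Sema3a, Sema3c and Sema3f were highest in replicate 2 of both groups. By the listed values all 7 class 3 ligands were highest there among the PBS libraries, and 4 of them in both groups. Sema3b, Sema3d and Sema3g held at most 3.6 approximate reads in any library, too few to order the libraries. The summed level of the 7 was 0.422, 1.198 and 0.624 FPKM after PBS and 0.322, 0.803 and 0.4 FPKM after vesicles. The summed level of 10 mesenchymal or osteosarcoma genes was also highest in replicate 2 of both groups, at 140, 329 and 152 FPKM after PBS and 226, 606 and 221 FPKM after vesicles. The class 3 mean was 0.748 FPKM after PBS and 0.508 FPKM after vesicles. Both this sum and the mesenchymal or osteosarcoma sum overlapped between the groups, and neither was tested between treatments. With the replicate block, Col1a1, Col1a2, Col3a1 and Sparc of the mesenchymal or osteosarcoma list were called higher, and Bgn and Runx2 lower. That model called 19.2% of all genes tested higher and 36.8% lower. Without the block none of that list was called higher, and Runx2 was called lower, where the shares were 18.4% and 35.6%. Runx2 passed the filter only through its PBS libraries. The part of these other transcripts in the class 3 and Sema7a values was not tested. Sema3f, a ligand of Nrp2, was at 0.181, 0.532 and 0.31 FPKM after PBS and 0.121, 0.459 and 0.16 FPKM after vesicles, and varied more by replicate than by treatment. Sema3c, another secreted ligand, was at 0.0777, 0.236 and 0.133 FPKM after PBS and 0.149, 0.255 and 0.194 FPKM after vesicles, with overlap. Without both libraries of replicate 2 and with no filter, limma called Sema3a (adjusted p = 0.0315) and Plxna4 (adjusted p = 0.0173) lower, where 7.78% of all genes below the filter were called lower.

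**Figure D4:**
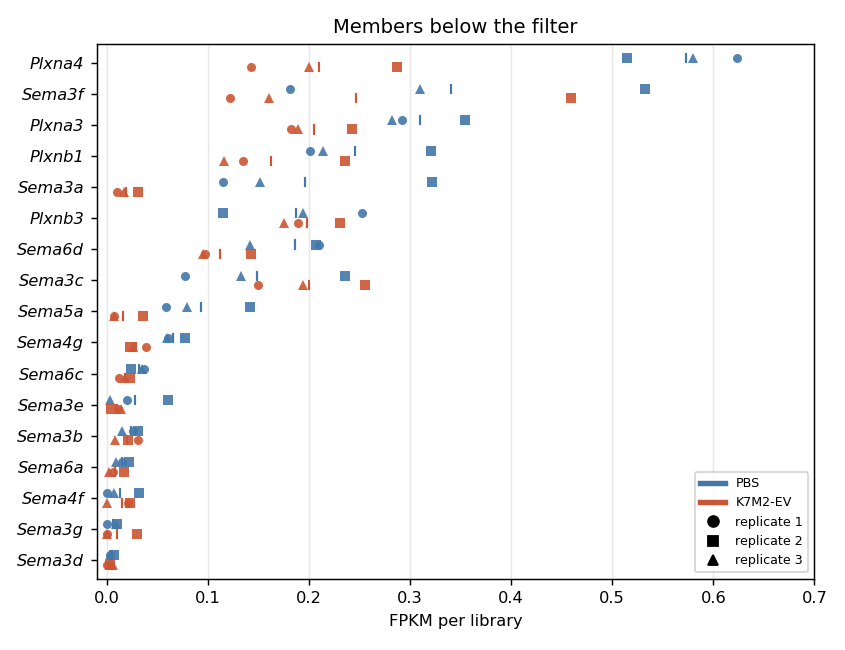
FPKM in each library on a linear axis for the 17 members below the filter, with symbols for replicates, colours for treatments and vertical bars for group means. Sema3a lies between 0.114 and 0.322 FPKM after PBS and at no more than 0.0309 FPKM after vesicles, and the squares of replicate 2 lie to the right for Sema3a, Sema3c and Sema3f.

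The cells' identity was checked on marker genes. All 7 macrophage markers were at 1 FPKM or more in at least 1 library, and their sum ran from 4013 to 4892 FPKM after PBS and from 12335 to 13822 FPKM after vesicles. Most of this sum was Lyz2, at means of 3746 and 10862 FPKM. Of the 7, 5 were called higher, Mertk was not called, and Cd68 fell from 411 ± 35.3 to 202 ± 11.7 FPKM (limma adjusted p = 0.00013). The shares over all genes tested were 18.4% called higher and 35.6% lower, 54.0% in either direction. The 6 neutrophil genes with values summed to 8.62 to 14.2 FPKM and 60.2 to 63.7 FPKM. All 3 that were tested were called higher, where 18.4% of all genes tested were, and Ly6g, Mpo and Ngp were below the filter. S100a8 went from 3.07 to 39.5 FPKM in the mean, Csf3r from 7.11 to 20.3 FPKM and Camp from 0.2 to 2.22 FPKM. Camp passed the filter only through its vesicle libraries. Ly6g, the defining surface marker, was at 0.107 FPKM in 1 PBS library and listed at 0 in the other 5. The 6 endothelial genes summed to 6.24 to 7.51 FPKM and 1.81 to 2.21 FPKM, and 5 of them were under 1 FPKM everywhere. Of the 6, Vwf went from 5.93 to 0.982 FPKM in the mean and Pecam1 from 0.1 to 0.611 FPKM. Lymphocyte genes with values (3) summed to 0.543 to 0.796 FPKM after PBS and to 0.159 to 0.251 FPKM after vesicles. Dendritic genes (4) summed to 0.11 to 0.285 FPKM and to 0.566 to 0.743 FPKM, and neural and glial genes (6) to 4.68 to 5.12 FPKM and to 2.26 to 2.50 FPKM. None of these sums overlapped between groups, but they rested largely on single genes. Cd4 went from 0.632 to 0.176 FPKM in the mean and Mbp from 4.22 to 2.11 FPKM. Of the dendritic genes, Ccr7 went from 0.0079 to 0.457 FPKM and Zbtb46 from 0.152 to 0.103 FPKM. The part of these cell types in the family's values was not tested.

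Genes that work with the family were followed in lists set by their known roles. Beside the counts of all these lists stands the share over all genes tested, 18.4% called higher and 35.6% lower, 54.0% in either direction. Of the 8 other receptors and co-receptors tested of 17, Met and Cd72 rose and Trem2, L1cam and Nrcam fell (median -0.23). Trem2, whose product pairs with plexin-A1, went from 112 ± 13.1 to 26.9 ± 1.57 FPKM (log2 difference -2.01, SE 0.0985, limma adjusted p = 1.74e-05). Its adaptor gene Tyrobp averaged 268 ± 48.6 FPKM after PBS, against 213 ± 9.04 FPKM after vesicles, without a call (limma adjusted p = 0.086), but was called lower without PBS replicate 2 (-0.45, limma adjusted p = 0.0114) or without both libraries of replicate 2 (-0.47, limma adjusted p = 0.0196). Cd72, the lymphoid receptor of Sema4D, rose from 26.9 ± 2.04 to 48.0 ± 8.16 FPKM (log2 difference 0.80, SE 0.13). Met, a receptor kinase that can associate with B-type plexins, rose from 2.49 ± 0.203 to 9.29 ± 0.569 FPKM. L1cam, a partner of neuropilin-1, went from 5.54 ± 0.715 to 1.51 ± 0.228 FPKM. Nrcam, a related adhesion molecule, went from 1.798 ± 0.0394 to 0.166 ± 0.0168 FPKM and passed the filter only through its PBS libraries.

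Growth factors that also bind neuropilins split, with 1 of 4 tested higher and 2 lower. Vegfc, a ligand of neuropilin-2, rose from 0.449 ± 0.251 to 2.42 ± 0.647 FPKM, and passed the filter only through its vesicle libraries. Vegfb fell from 5.05 ± 0.386 to 1.55 ± 0.384 FPKM and Hgf, the ligand of MET, from 3.12 ± 0.618 to 0.95 ± 0.16 FPKM. Hgf was under 1 FPKM in K7M2-EV replicate 3, so it passed the filter only with the help of its PBS libraries. Vegfa, a ligand of neuropilin-1, averaged 1.59 ± 0.444 FPKM after PBS, against 1.52 ± 0.624 FPKM after vesicles, and stayed uncalled (limma adjusted p = 0.838), with a difference whose sign changed with scaling.

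Of 18 small GTPase and exchange factor genes linked to plexins, 8 rose and 3 fell (median 0.06), where 18.4% of all genes tested rose and 35.6% fell. With the replicate number as a block 8 rose and 6 fell, where the shares were 19.2% and 36.8%. Rnd1, among the 8 that rose in both models, passed the filter only through its vesicle libraries. Rras, a Ras family GTPase that plexins switch off, rose from 15.8 ± 0.963 to 48.0 ± 1.32 FPKM (log2 difference 1.55, SE 0.0594, limma adjusted p = 7.28e-06). Rap1b, a GTPase of integrin activation, rose from 109 ± 2.57 to 254 ± 19.4 FPKM and Mras from 2.60 ± 0.235 to 7.25 ± 1.153 FPKM. Tiam1, a Rac exchange factor, fell from 2.39 ± 0.0533 to 0.735 ± 0.0337 FPKM, and Rhod, which binds plexin-A1, from 1.83 ± 0.15 to 0.497 ± 0.211 FPKM. Both passed the filter only through their PBS libraries. Arhgef11, an exchange factor bound by B-type plexins, had a log2 difference of -0.33 (limma adjusted p = 0.0274). That call was lost with median-of-ratios scaling (-0.21, adjusted p = 0.127), with quantile normalization (-0.22, 0.111), with no filter (0.0525), without PBS replicate 1 (0.0629) or 3 (0.0834), without K7M2-EV replicate 1 (0.0762) or 3 (0.0629), and without both libraries of replicate 1 (0.136) or 3 (0.158).

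Of 15 cytoskeletal effector genes tested, 3 rose and 5 fell (median -0.12), where 54.0% of all genes tested were called. With the replicate block Limk2 was called lower too (limma adjusted p = 0.0355, against 0.0559). Mical1 and Mical2, oxidases that take actin filaments apart downstream of plexins, fell from 9.58 ± 1.59 to 1.48 ± 0.0411 FPKM and from 14.0 ± 0.87 to 4.79 ± 0.548 FPKM. Their log2 differences were -2.08 (SE 0.115) and -1.38 (SE 0.083), with limma adjusted p-values of 2.72e-05 and 3.88e-05. Fyn, a kinase recruited by A-type plexins, fell from 6.72 ± 0.234 to 3.81 ± 0.132 FPKM. Fer rose by 0.57, Cfl1, the actin-severing cofilin gene, by 0.39, and Limk1, the cofilin kinase gene, by 0.30 on the log2 scale. The Limk1 call was lost without both libraries of replicate 1 (limma adjusted p = 0.0536) or 3 (0.053).

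Among proteases that process semaphorins, 2 of 5 tested rose and 2 fell. Mmp14, whose product sheds Sema4D from the cell surface, went from 2.69, 5.32 and 2.55 FPKM after PBS to 67.0, 61.1 and 71.4 FPKM after vesicles. The groups lay far apart (log2 difference 3.95, SE 0.222, limma adjusted p = 2.94e-05). Adam17 rose from 21.2 ± 1.66 to 28.6 ± 1.83 FPKM, a call that was lost when replicate 1 was left out of both groups (limma adjusted p = 0.051). Furin, which cuts class 3 semaphorin precursors, fell from 7.36 ± 0.146 to 4.88 ± 0.477 FPKM. Adam10 fell from 27.6 ± 1.67 to 22.3 ± 0.0577 FPKM, a call lost with median-of-ratios scaling (limma adjusted p = 0.0604) and with replicate 3 left out of both groups (0.0741).

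**Figure D5:**
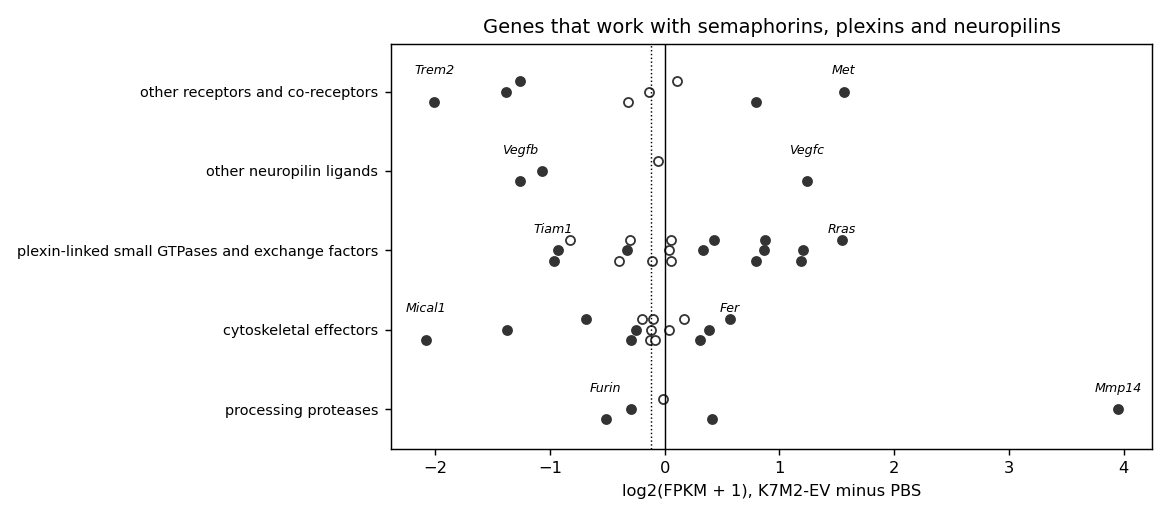
Difference in log2(FPKM + 1), K7M2-EV minus PBS, for the tested genes of 5 lists of genes that work with the family. Filled symbols were called, open ones were not, the dotted line is the median of all genes tested, -0.12, and the lowest and highest gene of each list is named. Mmp14 at 3.95 and Mical1 at -2.08 stand at the ends.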

How the data were processed

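RNA of 6 macrophage libraries was sequenced, and the authors deposited 1 table of values per library, read here as FPKM, with 26883 rows of gene symbols. The submitters' processing notes list, without roles, GRCm38 and the tools StringTie 1.3.4b, HISAT2 2.1.0, CASAVA 1.8 and edgeR. Libraries were made with a NEBNext Ultra kit, per the labels' protocols. A row without a value (1) and 47 rows of repeated symbols were dropped. FPKM times GENCODE M21 exon length, known for 99.5% of genes, fell on whole multiples of 1 step for 72.4% to 73.3% of values worth at most 20 reads (tolerance 0.1, where chance gives 20%). This implied 21439075 to 25608932 reads per library. Members kept by the filter were backed by at least 31 approximate reads in every library (31 for Plxna4os1, 113.5 or more for the others).

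The file headers name no unit, and the deposited values were taken to be FPKM. The steps show a value per length, but do not tell FPKM from another such unit, and the implied reads rest on that reading. limma 3.58.1 (R 4.3.3, with statmod 1.5.0 for robust, trended eBayes) was fitted to all genes kept by the filter, with a pseudocount of 1 and no further scaling. Ratios were tested by exact permutation with scipy 1.17.1, and voom used genes with at least 10 approximate reads in at least 3 libraries. The limma model was also run on simulated data that held no replicate effect, and no result given here rests on that run. The members, gene lists and tests were chosen with earlier results of these data known. All members kept by the filter are named, and of each partner list the up to 3 largest called changes in each direction, plus Trem2, Tyrobp, Cd72 and Vegfa (Timd2 was not analysed here). Promoter sequences shown were chosen after their motif matches were seen. Deviations from the group mean correlated across genes between libraries of one number (0.317, 0.294 and 0.209). No label says that a number marks a shared batch. The replicate block treats the numbers as pairs, on the data alone. The main model and the permutations of ratios do not, and the p-values printed are unpaired unless the block is named. Replicates of independent experiments are stated, not their animals, so p-values measure the spread between these libraries. Alternatives were other pseudocounts, filters, scalings, the replicate block, voom and left-out libraries.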

Additional observations from a re-analysis of the deposited data

How the results depend on the processing

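Across the 14 members kept by the filter, the 11 calls kept their direction under every alternative in which they were tested, and lost their threshold only for Plxna1 and Sema7a, as given beside their values. Differences that were not called changed sign for Plxnb2 with quantile normalization (-0.0259), without PBS replicate 2 (-0.016, where leaving out 1 library gave -0.016 to 0.0497) and without both libraries of replicate 2 (-0.0052). They did so for Sema4b with median-of-ratios scaling (0.0132), quantile normalization (0.124) and without both libraries of replicate 1 (1e-04). For Vegfa they did so with median-of-ratios scaling (0.034), quantile normalization (0.166), without PBS replicate 2 (0.0446), K7M2-EV replicate 1 (0.0444) or 3 (0.0425), and without both libraries of replicate 1 (0.0925); leaving out 1 library gave -0.2493 to 0.0446. Counts over all genes were 2395 higher and 4631 lower. Without both libraries of replicate 3 they were 1531 and 2847, and a filter at 5 FPKM left 2153 lower, of 6409 genes tested. Voom keeps more low members, and tested 12 ligands and 11 receptors against 6 and 7 in the main model. It called 7 ligands lower in place of 3, where 35.8% of all its genes were called lower. With the replicate block it called 7 ligands and 8 receptors lower in place of 3 and 5, where that share was 39.5%. In the main model the replicate block changed no call of a member: 2 ligands higher and 3 lower, 1 receptor higher and 5 lower. The 17 members below the filter rest on at most 209.3 approximate reads in a library, and their calls differ between limma and voom.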
